A study of Mus musculus with 2 samples.

Results

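The accessible chromatin of mouse cerebral cortex was described at 10 genes of glucocorticoid signalling and the stress response, chosen by name: Nr3c1, Nr3c2, Fkbp5, Hsd11b1, Sgk1, Tsc22d3, Ddit4, Zbtb16, Crhr1 and Crhbp. They are 10 of the 21938 protein-coding genes in the GENCODE annotation used. Each gene was taken with 50 kb on either side, and those 10 windows covered 2034 kb. DNase-seq cuts nuclei with DNase I, which reaches DNA in open chromatin, and sequences the ends of the fragments. The study holds 2 libraries of left cerebral cortex, each from a 36-day-old female B6CASTF1/J mouse (a cross of C57BL/6J and CAST/EiJ), and they are biological replicates 1 and 2 of a single group. The labels name no treatment, hormone level, allele or transgene for either mouse, and the 2 animals have separate numbers under 1 shared donor entry. The series therefore gives no comparison between conditions, and what follows gives levels and the spread between the 2 mice, with no test.

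Cortisol, or corticosterone in rodents, enters the cell and binds a pair of nuclear receptors: the glucocorticoid receptor, encoded by Nr3c1, and the mineralocorticoid receptor, encoded by Nr3c2. Chaperones hold the receptors ready for hormone. The loaded receptor moves to the nucleus and binds DNA at glucocorticoid response elements, palindromes whose arms are separated by a few free bases, and other steroid receptors can bind the same element. In the brain the system shuts off the hypothalamic stress response and changes neuronal metabolism and plasticity, and FKBP5 is widely studied in stress-related disorders. Reads from whole tissue mix neurons and glia, so fewer cells of a type and less accessibility per cell cannot be told apart.

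The sequences below carry the main observation, which is where the response element lay inside accessible DNA. The palindrome was searched as GNACANNNTGTNC, which reads the same on both strands, and its letters are capitals in each sequence. Among regions called in both mice, 7 held it, 3 at Fkbp5 and 4 in intron 3 of Zbtb16. All are from the mm10 reference, + strand, so CAST alleles are not shown. Regions longer than 300 bases are cut to 200 around the match.
Fkbp5 chr17:28484888-28485087 (+): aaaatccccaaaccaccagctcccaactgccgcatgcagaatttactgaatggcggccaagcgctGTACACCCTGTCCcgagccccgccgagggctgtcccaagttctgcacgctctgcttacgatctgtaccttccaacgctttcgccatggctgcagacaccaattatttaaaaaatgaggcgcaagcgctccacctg
Fkbp5 chr17:28518041-28518280 (+): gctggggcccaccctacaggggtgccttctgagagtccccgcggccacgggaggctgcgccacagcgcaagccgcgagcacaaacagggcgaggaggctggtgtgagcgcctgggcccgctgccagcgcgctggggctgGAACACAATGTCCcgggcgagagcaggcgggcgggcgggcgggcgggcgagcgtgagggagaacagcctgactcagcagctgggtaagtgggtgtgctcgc
Fkbp5 chr17:28523061-28523340 (+): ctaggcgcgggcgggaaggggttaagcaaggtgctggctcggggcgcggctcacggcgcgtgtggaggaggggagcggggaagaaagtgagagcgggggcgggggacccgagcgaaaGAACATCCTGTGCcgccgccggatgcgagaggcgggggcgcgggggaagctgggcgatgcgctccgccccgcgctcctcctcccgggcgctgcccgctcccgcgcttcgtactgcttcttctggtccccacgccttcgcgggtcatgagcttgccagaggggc
Zbtb16 chr9:48740201-48740460 (+): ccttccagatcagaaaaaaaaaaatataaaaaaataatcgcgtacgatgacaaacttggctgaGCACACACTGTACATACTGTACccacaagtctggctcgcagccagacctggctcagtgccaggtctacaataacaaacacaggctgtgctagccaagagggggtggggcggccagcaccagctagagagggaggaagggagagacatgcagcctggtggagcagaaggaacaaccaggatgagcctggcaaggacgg
Zbtb16 chr9:48737541-48737800 (+): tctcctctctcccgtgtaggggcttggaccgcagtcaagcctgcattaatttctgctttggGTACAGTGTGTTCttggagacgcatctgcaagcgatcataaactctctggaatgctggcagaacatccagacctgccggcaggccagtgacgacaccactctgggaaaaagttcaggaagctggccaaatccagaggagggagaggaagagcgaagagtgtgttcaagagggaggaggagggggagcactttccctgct
Zbtb16 chr9:48736403-48736640 (+): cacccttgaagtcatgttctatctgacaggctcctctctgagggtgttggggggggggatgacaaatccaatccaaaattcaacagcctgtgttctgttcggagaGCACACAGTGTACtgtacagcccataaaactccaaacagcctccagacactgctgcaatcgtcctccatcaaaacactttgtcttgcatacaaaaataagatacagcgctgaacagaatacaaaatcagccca
Zbtb16 chr9:48723610-48723809 (+): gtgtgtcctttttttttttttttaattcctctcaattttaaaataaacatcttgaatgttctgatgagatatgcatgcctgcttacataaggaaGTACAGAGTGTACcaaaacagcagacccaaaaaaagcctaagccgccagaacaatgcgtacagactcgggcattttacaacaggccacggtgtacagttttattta
The Zbtb16 region at chr9:48740201-48740460 held 2 matches that overlap, so its capitals run on for 22 bases. The other 6 regions held 1 match each. No printed match lay in a repeat.

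A stricter form, with both arms complete (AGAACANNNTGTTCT, the same on both strands), occurred 5 times in the 10 windows and in no case wholly inside a region called in both mice. A copy upstream of Ddit4, 22.4 kb from its start, lay at the edge of such a region, and a copy upstream of an Sgk1 start lay outside every peak. Of the other 3, those at 76875320 (Nr3c2) and 28442420 (Fkbp5) lay in no peak of either mouse, and that at 28420322 (Fkbp5) lay in a peak of replicate 2's longer list, with all 13 core bases passing the false discovery rate of 0.05 in that mouse only. The Ddit4 and Sgk1 sequences are shown, with the full palindrome in capitals. In the Sgk1 promoter, which is from the RefSeq promoter table (GRCm38.p6), a further single arm, TGTTCT, is in capitals as well. The Ddit4 sequence also holds a further TGTTCT after the palindrome, left in lower case.
Ddit4 chr10:59974265-59974468 (+): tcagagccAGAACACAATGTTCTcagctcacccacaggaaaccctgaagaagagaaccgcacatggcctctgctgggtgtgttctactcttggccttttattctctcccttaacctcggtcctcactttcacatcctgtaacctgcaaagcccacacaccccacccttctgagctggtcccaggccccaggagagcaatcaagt
Sgk1 promoter chr10:21993640-21993889 (+): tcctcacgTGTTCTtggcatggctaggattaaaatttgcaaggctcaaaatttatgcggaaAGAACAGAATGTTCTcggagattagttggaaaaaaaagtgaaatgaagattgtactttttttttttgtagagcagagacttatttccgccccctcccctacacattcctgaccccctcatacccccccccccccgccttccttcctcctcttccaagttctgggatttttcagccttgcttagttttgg

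Both peak lists used were the shorter of 2 deposited per library and held 69208 peaks in replicate 1 and 69128 in replicate 2. Overlapping peaks were merged, and 48886 regions were called in both mice. The number of reads per library is not known from these files. Heights were whole multiples of a fixed step, and the median peak was 193 steps high in replicate 1 and 162 in replicate 2. A peak's height is the authors' own signal value, so each is given with its percentile within its own list. Marker genes fixed for the tissue had promoter peaks in both mice for the excitatory neuron genes Camk2a, Neurod6, Slc17a7 and Tbr1, and for 4 of 5 astrocyte genes, 2 of 5 interneuron genes and 2 of 5 oligodendrocyte genes. None of the 4 microglial, 4 endothelial and 6 non-brain genes (Alb, Apoa1, Cd3e, Cdx2, Ins2 and Myh1) had a promoter peak in both mice.

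Of the 10 genes, 9 had a peak within 1 kb of an annotated start in both mice, against 61.0% of all protein-coding genes. Crhbp was the exception. The median percentile of those 9 peaks, as the mean of the mice, was 90.4, against 88.4 for all protein-coding genes with such a peak. Where a gene had several such regions, the one called in both mice with the highest mean percentile is given. Ddit4 and Fkbp5 were highest in both mice, followed by Sgk1 and Nr3c2, and Crhr1 was lowest. Between these, Nr3c1 stood apart from Zbtb16 in replicate 1 (5.25 against 3.42) and next to it in replicate 2 (2.78 against 2.61). Sgk1 stood above Nr3c2 in replicate 1 and below it in replicate 2, and Tsc22d3 and Hsd11b1 also changed places between the mice, so the order within those pairs was not resolved. Fkbp5 and Nr3c2 stood apart in replicate 1, at 9.67 and 6.36, and almost level in replicate 2, at 5.52 and 5.50. The 10 genes had 32 groups of annotated starts, taking starts within 1 kb as 1 group, and 17 groups had a region called in both mice within 1 kb. Of the 26 groups with a coding transcript, 16 had one. Start groups of other genes were not counted, so these counts cannot be read as high or low.

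**Figure D1:**
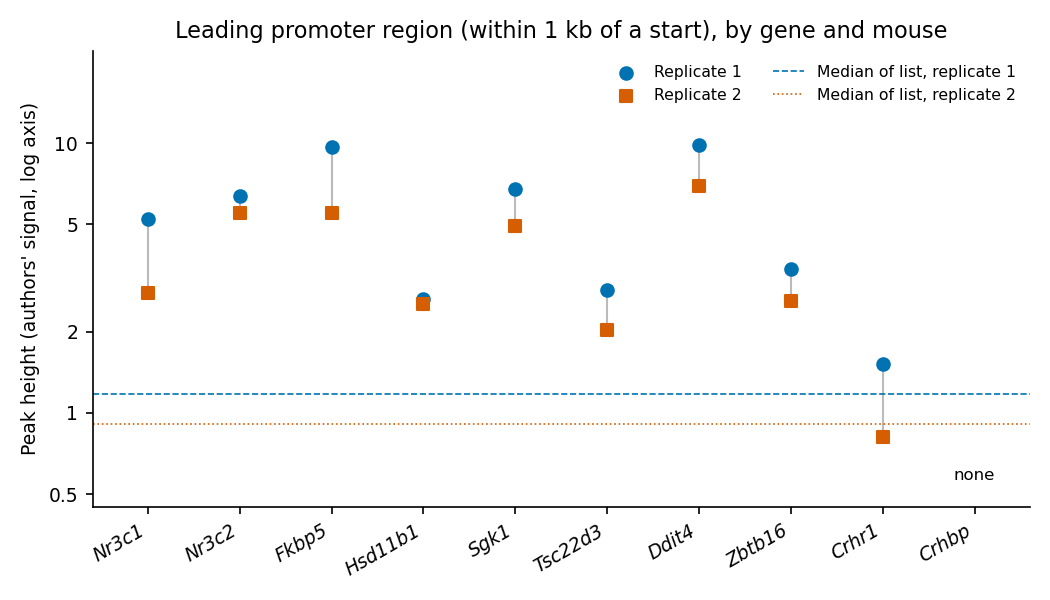
Height of the leading promoter region of each gene, the region within 1 kb of an annotated start called in both mice with the highest mean percentile (the authors' signal, log axis), with 1 point per mouse and the median height of each list as a horizontal line. Ddit4 and Fkbp5 stand highest at 9.82 and 9.67 in replicate 1, Crhr1 is lowest at 1.52 and 0.813, and Crhbp has no such peak.

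Nr3c2, the mineralocorticoid receptor gene (ENSMUSG00000031618, chr8:76899442-77245012, + strand), had its highest peak at chr8:76901981-76902220, 68 bp from a start group shared by 4 transcripts. Its height was 6.36 in replicate 1 and 5.50 in replicate 2, at percentiles 95.2 and 97.9. A broader region of 1320 bases over the outermost starts (chr8:76898861-76900180) reached 1.27 and 1.38. The start at 76908272 and the noncoding one at 77128013 had no region within 1 kb. Beyond its starts the gene was sparse: 4 intronic regions were called in both mice over 346 kb of gene, with heights between 0.547 and 1.02 in replicate 1 and between 0.466 and 0.712 in replicate 2. The region away from its starts with the highest mean percentile, at chr8:77256481-77256753 beyond the 3' end and in the body of Arhgap10, reached 0.882 and 1.05, and in replicate 1 an intronic region was higher. Nr3c2 had 0.180 regions per 10 kb of its window, the second lowest of the 10.

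Nr3c1, the glucocorticoid receptor gene (ENSMUSG00000024431, chr18:39410545-39519421, - strand), opened at a cluster of alternative first exons and not at its outermost start. The 6 starts between 39489283 and 39491301 had 4 regions called in both mice within 1 kb, laid almost end to end. The highest, 300 bp upstream of the start at 39491301, reached 5.25 in replicate 1 and 2.78 in replicate 2, at percentiles 92.1 and 88.6. Its 3 neighbours reached 2.49, 2.24 and 1.57 in replicate 1 and 2.41, 1.86 and 1.53 in replicate 2. Another region, at a start group 2.0 kb further into the gene, was lower at 1.03 and 0.808. The outermost start, at 39519421, belongs to 1 transcript and had no region within 1 kb. Its highest region away from starts, in the 3' flank (chr18:39391121-39391320), reached 1.16 and 1.20. No intron of Nr3c1 held a region called in both mice outside these starts. The 4 regions of the cluster held 30 footprints in replicate 1 and 35 in replicate 2, where a footprint is a short stretch that the authors called as protected from cutting.

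Fkbp5 encodes a co-chaperone that lowers the receptor's affinity for hormone and is itself induced by it. The gene (ENSMUSG00000024222, chr17:28399094-28517527, - strand) had its highest peak not at the outermost start but 31.4 kb inside, at chr17:28486061-28486320, over the starts of Fkbp5-201 and Fkbp5-214. That peak reached 9.67 in replicate 1 and 5.52 in replicate 2, at percentiles 99.1 and 97.9. The outer start, shared by 4 transcripts, had a region 514 bp upstream (chr17:28518041-28518280) at 6.57 and 3.66, and this is the second Fkbp5 sequence printed above. The other 5 start groups of the gene had no region called in both mice. The first Fkbp5 sequence comes from a broad region of 913 bases just inside the inner start, which was low at 1.14 and 0.746 and held no footprint in either mouse. The third comes from the highest region of the window away from the gene's own starts, at 6.41 and 3.99, which lies upstream of the gene at the starts of the noncoding genes Gm20109 and E230001N04Rik. The first region stood at percentiles 48.6 and 38.2, the third at 95.3 and 94.1.

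Hsd11b1 encodes the reductase that regenerates active corticosterone inside cells. The gene (ENSMUSG00000016194, chr1:193221634-193264075, - strand) had a single region at its starts, chr1:193242321-193242580, at 2.65 and 2.52, and percentiles 77.7 and 87.0. The outermost start, 20.5 kb upstream of the next group, had no peak in either mouse. An intronic region at chr1:193255601-193255780 reached 2.45 and 1.24. The highest region of the window, at 4.51 and 3.72, lay at the start of a neighbouring gene, A130010J15Rik, and others lay at the starts of Lamb3 and G0s2.

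Sgk1, a kinase that raises ion transport and a rapid hormone target (ENSMUSG00000019970, chr10:21882184-21999903, + strand), was most open near its 3' starts. The highest region, chr10:21994461-21994780, reached 6.75 and 4.92, at percentiles 96.0 and 96.7. Another 3 regions stood at the neighbouring starts: 3.55 and 2.24 at 21991341, 2.51 and 1.76 at 21992559, and 4.20 and 1.85 at 21996021, the first height being replicate 1 in each. The outermost start, 111.7 kb upstream, was also open, at 1.98 and 1.45, whereas the starts at 21928470 and 21978672 had no region within 1 kb. The full response element printed above lies 182 bp upstream of the start at 21993890 and 381 bp from the nearest region called in both mice. Replicate 1 alone had a peak of height 2.09 between that start and the gene's highest region, 227 bp from the element. No base of it had a cut rate passing the false discovery rate of 0.05 in either mouse, and no peak of the shorter or longer lists covered it. The kinase gene's highest region away from starts, 13650 bp beyond its last start (chr10:22010241-22010440), reached 5.92 in replicate 1 and 2.11 in replicate 2.

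Tsc22d3, which encodes the anti-inflammatory leucine zipper protein GILZ (ENSMUSG00000031431, chrX:140539528-140600659, - strand), had its main peak at the start of the short isoforms, chrX:140543061-140543340, at 2.85 and 2.03 and percentiles 79.4 and 82.3. The start of the long isoform had a low region 182 bp away, at 0.730 and 0.623 and percentiles 26.0 and 27.2. The start group between them, at 140548338 to 140548529, had none. Downstream of the gene a region 22.3 kb from the nearest start reached 1.56 and 1.49, the highest away from its starts. The gene lies on the X chromosome, and both mice were female.

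Ddit4, an inhibitor of the growth kinase complex mTORC (ENSMUSG00000020108, chr10:59949669-59951834, - strand), had the highest promoter peak of the 10 in both mice. The region chr10:59951761-59952100 over its only start reached 9.82 and 6.93, at percentiles 99.2 and 99.4, and its promoter stood 380th among the 13384 protein-coding genes with a promoter peak in both mice, by mean percentile. Lower regions flanked it, at 3.09 and 2.21 inside the gene and at 1.32 and 1.23 upstream. Its window was also the densest by regions called in both mice, with 10 regions and 0.979 per 10 kb, and 93.4% of protein-coding genes had that density or less. By the peaks of replicate 2 alone Zbtb16 was denser, at 1.42 per 10 kb against 1.27, and its density from regions in both mice was 0.426. Of the 10 Ddit4 regions, 7 lay outside the gene and its start. The highest of them, 52.1 kb away on the 3' side, reached 3.16 and 2.43. The region with the full response element at its edge, chr10:59974281-59974468, was of middling height at 1.03 and 0.886, percentiles 43.5 and 48.5. Of the 13 core bases of the element, 6 lay inside that region, and all 13 passed the false discovery rate of 0.05 in both mice. A footprint overlapped the match in both mice.

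Zbtb16 encodes the zinc finger repressor PLZF. The gene (ENSMUSG00000066687, chr9:48654297-48836222, - strand) has its starts in 1 group, and the region over them, chr9:48835633-48836520, reached 3.42 and 2.61 at percentiles 83.5 and 87.6. More of its regions were intronic than in any other of the 10 genes: 7 of the 12 called in both mice, and 4 of these lay in intron 3, which is 26.1 kb long. Those 4 are the printed sequences. They reached 5.50 and 2.75 (48740201), 4.15 and 4.71 (48737541), 1.33 and 1.54 (48736403), and 3.23 and 2.37 (48723601), the first height of each pair being replicate 1. The region at 48737541 stood at percentiles 87.5 and 96.2, above the gene's own promoter in both mice, as did the one at 48740201.

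Crhr1, the main receptor for corticotropin-releasing hormone (ENSMUSG00000018634, chr11:104132855-104175523, + strand), had the weakest of the 9 promoter peaks. Region chr11:104132481-104132900 over its single start reached 1.52 and 0.813, at percentiles 61.0 and 43.4. Its 2 neighbours within 1 kb reached 1.65 and 0.763 upstream and 0.997 and 0.752 downstream. Intronic regions in intron 2 and intron 8 were higher than the promoter in both mice, at 2.91 and 1.99 (chr11:104158001-104158240) and at 3.80 and 1.90 (chr11:104171581-104171800). The highest region of the window, 20.4 kb past the 3' end, reached 4.94 and 2.38.

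Crhbp, whose product binds the same hormone outside cells and limits its action (ENSMUSG00000021680, chr13:95431371-95444924, - strand), had no peak of the shorter lists in its 13.6 kb body or within 1 kb of its starts, in either mouse. In the longer lists replicate 2 had 3 weak peaks centred between 1.09 and 1.51 kb inside the gene, with heights of 0.269 to 0.376. The edge of 1 of them lay within 1 kb of a start, and replicate 1 had no peak in the gene. Replicate 2 had 594 bp of the body passing the false discovery rate of 0.05, and replicate 1 had 0 bp. Only 2 regions of the window were called in both mice, both intergenic, at 3.72 and 1.71 (chr13:95390281-95390460) and at 4.76 and 1.35 (chr13:95481521-95481740). Crhbp is known to be expressed in scattered interneurons. Of the interneuron markers, Gad2 and Pvalb had a promoter peak in both mice, Gad1 in replicate 1 only, Sst in replicate 2 only, and Vip in neither. The part of cell numbers in this was not tested.

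Across the 10 windows, 147 merged regions were found, of which 82 were called in both mice, 20 in replicate 1 only and 45 in replicate 2 only. In the whole lists there were 83423 merged regions, with 48886 in both mice, 17179 in replicate 1 only and 17358 in replicate 2 only. Of the 82, 28 lay at a member's own start, 20 in introns, 27 between genes, 5 at starts of other genes and 2 in the body of another coding gene. Density ranged from 0.176 regions per 10 kb at Crhbp to 0.979 at Ddit4. The median was 0.430 over the 10 genes against 0.331 over all protein-coding genes, and 8 of the 10 were above 0.331. Pooled, the 10 windows held 0.403 per 10 kb. The mean of the single-gene densities over all protein-coding genes, a different average, was 0.398. With both longer lists the 10 windows pooled held 0.664 regions per 10 kb instead of 0.403, and with peaks above the median height 0.251. The median region stood at percentile 66.9 of replicate 1 and 67.2 of replicate 2. The 33 regions within 1 kb of any start had a median percentile of 76.1 and 80.0, against 74.7 and 77.6 for all such regions. The 49 further away stood at 60.1 and 58.0, against 53.4 and 53.5 for all regions further than 1 kb from a start, and the 20 intronic ones at 53.9 and 56.2.

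**Figure D2:**
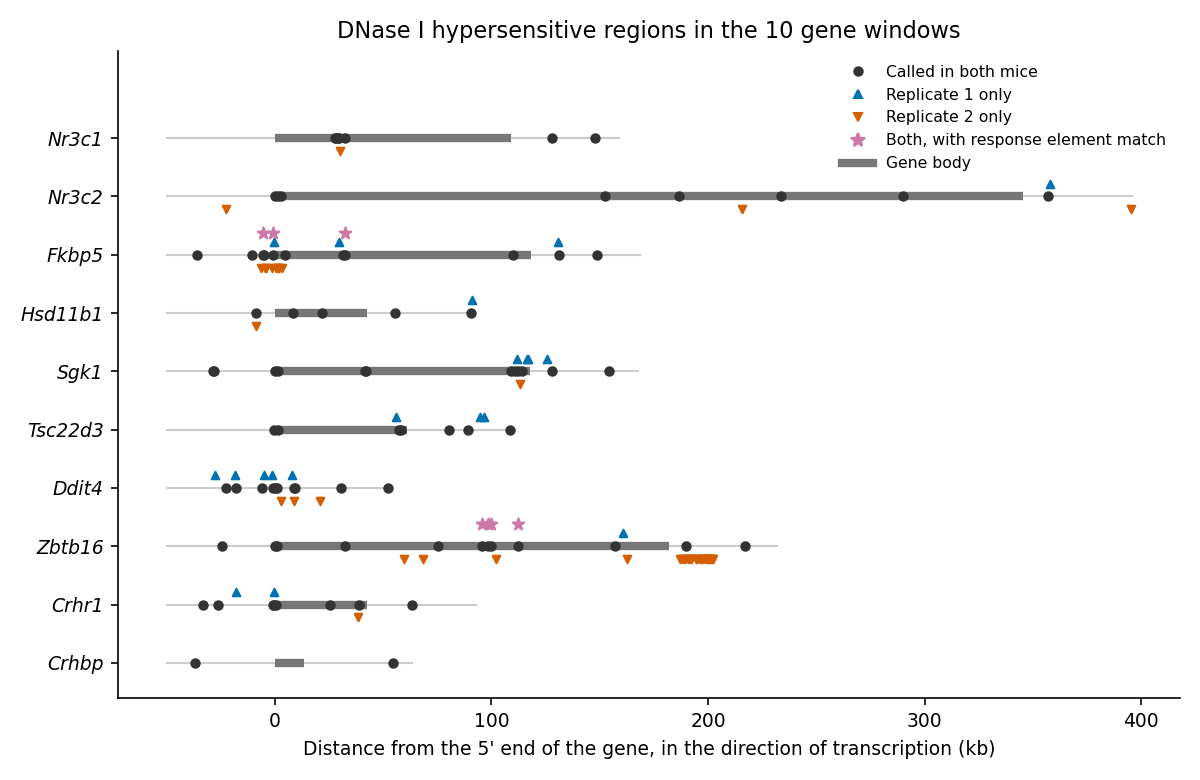
Regions in the 10 windows by distance from the 5' end of each gene along its transcription (kb). Black circles are regions called in both mice, triangles are regions called in 1 mouse, stars are regions in both mice with a response element match, and the thick bar is the gene body. Stars appear at Fkbp5 (3) and Zbtb16 (4) only, and a dense row of replicate 2 triangles stands just past the 3' end of Zbtb16.

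Whole response element matches inside regions called in both mice were found at Fkbp5 and Zbtb16, and at no other of the 10 genes. It was present in 7 of 82 regions (8.54%), against 0.743% of the 48886 regions called in both mice. Among regions 180 to 400 bases wide, 6 of 62 held it (9.68%), against 0.701% of all regions of those widths. The count came from 2 of the 10 genes, while 3.23% of protein-coding genes had at least 1 such region in their window. At least 3 such regions were found for 3 of the 21938 protein-coding genes (0.0137%), a cut-off chosen after the values were seen. These were Zbtb16 with 4, Fkbp5 with 3, and Armc12, whose window holds the same 3 regions as Fkbp5. The windows of Zbtb16 (282 kb) and Fkbp5 (218 kb) are longer than the median window of all protein-coding genes (117 kb). The gene shares above therefore do not compare windows of equal length. The longer lists gave 11 regions, of which 5 were at Fkbp5, 4 at Zbtb16, 1 at Tsc22d3 and 1 at Ddit4. The single arm AGAACA alone (searched on both strands, and contained in the full palindrome) was in 20 of 82 regions, or 24.4%, against 17.1% of all regions.

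Most matches in the windows were outside called regions. The 10 windows held 49 matches, of which 8 lay wholly inside regions called in both mice (16.3%). Over the genome, 44933 matches were found and 0.815% lay in such regions, which make up 0.548% of it. Fkbp5 had the most matches per length, with 14 in its window or 6.41 per 100 kb, against 1.70 per 100 kb over the genome. Zbtb16 had 8, of which 5 lay in its intron 3 regions. The other 8 windows together had 27 matches and none wholly inside a region called in both mice. A Tsc22d3 match at 140505966 and a Ddit4 match at 59979355 lay in shorter-list peaks of replicate 1 only. In the longer lists peaks of both mice overlapped them, and all 13 bases of each passed the false discovery rate of 0.05 in both. Nr3c2 had 7 matches and no base of them passed the false discovery rate of 0.05 in either mouse.

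**Figure D3:**
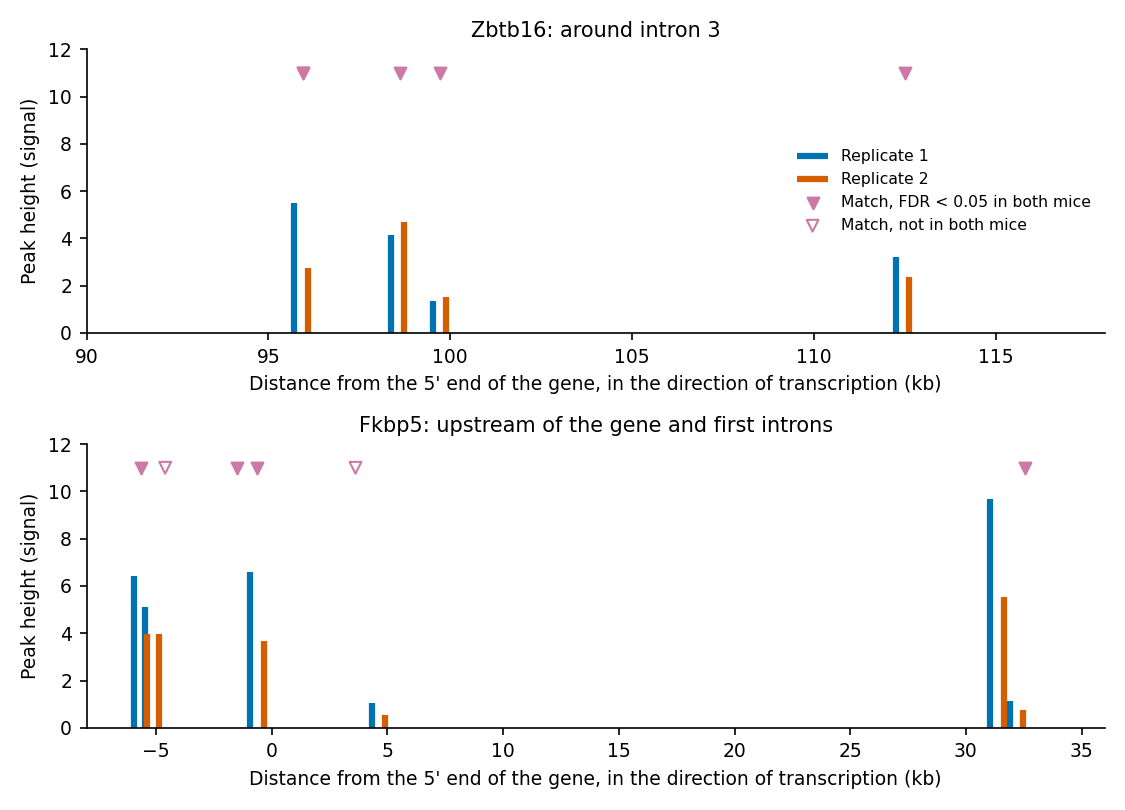
Heights of regions called in both mice (the authors' signal, bars from 0, 1 per mouse) around intron 3 of Zbtb16 and over the 5' part of Fkbp5, by distance from the gene's 5' end (kb). Triangles mark palindrome matches, filled where their bases passed the false discovery rate of 0.05 in both mice. All 5 matches in the Zbtb16 panel are filled, with 2 overlapping at the left, and the tallest pair at Fkbp5 (9.67 and 5.52) is its inner promoter.

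At 4 of the 8 matches inside regions a footprint overlapped the match in both mice: the upstream start and the Gm20109 start region at Fkbp5, and the Zbtb16 regions at 48736403 and 48737541. Over all 366 matches in regions called in both mice, 77 had this (21.0%). The 2 overlapping matches at 48740201, in the tallest of the Zbtb16 regions in replicate 1, had none in either mouse. The match at 48723704 lay inside the peak of replicate 2 and outside the narrower peak of replicate 1, although its bases passed the false discovery rate of 0.05 in both. Another 2 Fkbp5 matches, at 28519032 and 28522128, lay in shorter-list peaks of replicate 2 only. All 13 bases of the match at 28519032 passed the false discovery rate of 0.05 in both mice. Those of the match at 28522128 passed it in replicate 2 only. In the regions of the 10 windows together there were 4.34 footprints per region in replicate 1 and 4.01 in replicate 2, against 3.92 and 3.79 in all regions. Of these, 50.8% and 58.4% had a footprint of the other mouse at the same place, against 53.1% and 57.3% in all regions.

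Other genes of the pathway were counted from 3 lists, beside the 61.0% of all protein-coding genes with a promoter peak in both mice. All 14 chaperones and cofactors of the receptors had a promoter peak in both mice, led by Hspa8 at 10.7 and 8.11, Ncoa2 at 10.0 and 6.91, and Hsp90ab1 at 9.59 and 6.07. Among 20 genes known to be induced by glucocorticoids in many tissues, 18 had one, led by Cited2 at 15.3 and 7.47, Per1 at 7.68 and 7.93, and Klf9 at 8.15 and 5.91. Lcn2 and Sult1a1 had none. Of 16 genes of the hypothalamic-pituitary-adrenal axis and steroid enzymes, 5 had one. Srd5a1, a steroid reductase, was highest at 5.98 and 6.43, followed by H6pd, which supplies the cofactor of the Hsd11b1 enzyme, at 2.90 and 1.92, and Hsd11b2, which inactivates the hormone, at 1.20 and 0.870. The first 3 without one, by alphabet, were Avp, Avpr1b and Crhr2. Crh, which encodes corticotropin-releasing hormone, had a low peak at 0.827 and 0.606. With peaks above the median height only, the count for the axis list was 2 of 16, against 54.6% of all protein-coding genes.

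**Figure D4:**
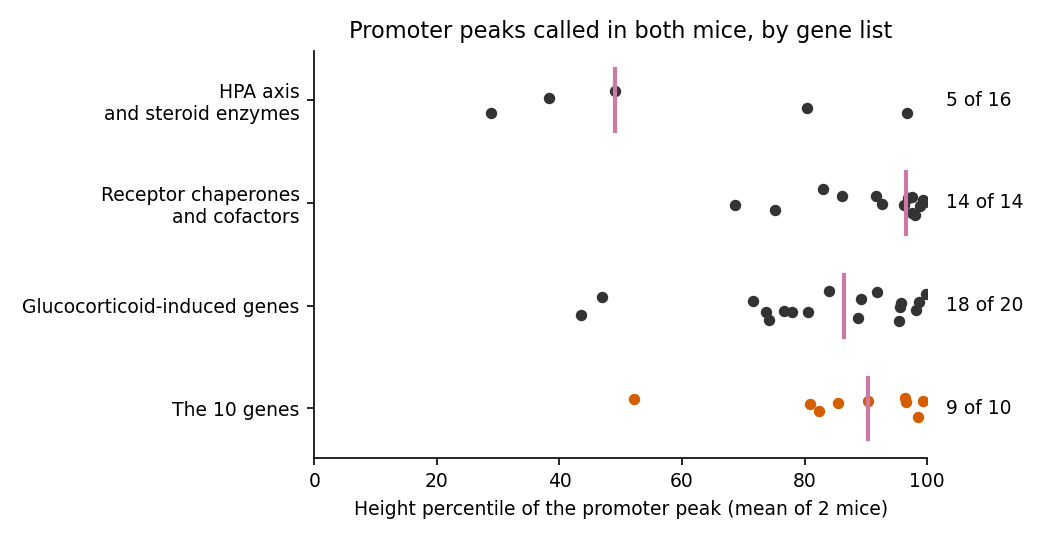
Height percentile of the promoter peak (mean of the 2 mice) for each gene with a promoter peak in both mice, by list, with the median as a vertical bar and the number of genes with such a peak at the right. The receptor chaperones and cofactors (14 of 14) run from percentile 68.7 to 99.6, and the axis list (5 of 16) is spread from 28.9 to 96.7.

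The response element count over these lists was added after the values of the 10 genes were seen. Of the 20 induced genes, 9 (45.0%) had at least 1 region called in both mice with the palindrome in their window, against 3.23% of all protein-coding genes. The 20 windows held a median of 0.711 regions per 10 kb, against 0.331 for all protein-coding genes, so these shares do not compare windows of equal density. Those 9 genes shared 10 regions, since Mt1 and Mt2 have the same one. Per1, a clock gene, had 2, at 1.91 kb and 4.17 kb into the gene, and the first of them reached 6.88 and 5.65 with a footprint over the match in both mice. Klf9, a hormone-induced zinc finger gene, had a region 6.58 kb upstream at 2.76 and 3.05. The shared metallothionein region, 1.15 kb upstream of Mt2, reached 1.41 and 1.11 with a footprint over the match in both mice. Among the chaperones and cofactors 1 of 14 had such a region (Ncoa1), and among the axis genes 0 of 16.

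The 2 mice differed most over a short stretch. Of replicate 1's peaks in the windows, 91 of 111 overlapped a peak of replicate 2 (82.0%, exact binomial 95% interval 73.6% to 88.6%, counting error only). Of replicate 2's, 90 of 136 overlapped a peak of replicate 1 (66.2%, interval 57.6% to 74.1%). Both intervals take peaks as independent draws, which neighbouring peaks need not be, and they measure no spread between mice. In the whole lists the shares were 74.6% and 74.3%. The stretch chr9:48633601-48649560, downstream of Zbtb16, held 25 peaks of replicate 2 and 1 of replicate 1. The 23 regions there called in replicate 2 only had a median height of 0.129, and 16 were below the 2nd percentile of their list. Of its bases, 12029 bp passed the false discovery rate of 0.05 in replicate 2 and 257 bp in replicate 1. Without that stretch the shares were 81.8% and 80.2%. Such runs of low peaks occurred in both replicates: 20 kb bins with at least 5 peaks below the 2nd percentile numbered 96 in replicate 1 and 91 in replicate 2, with 2 in common.

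Heights of the 82 shared regions were compared as the log2 ratio of replicate 2 to replicate 1, centred on the median of all shared regions (-0.42 on the log2 scale). The 82 had a median centred ratio of -0.03 with an SD of 0.46, against an SD of 0.47 over all shared regions. Of the 82, 77 lay within 1 unit of 0, against 95.7% of all shared regions. The lowest was the Crhbp region at chr13:95481521-95481740 (-1.41). The highest was a region in the body of Arhgap26, in the window of the glucocorticoid receptor gene, at 0.717 in replicate 1 and 1.12 in replicate 2 (1.05). Regions further than 1 kb from any start with a match to CCANNAGNNGGC, a CTCF-type motif searched on both strands, had a median of -0.67 (8 regions, 6 below 0), and the other 41 had -0.03. Over the whole series the same split gave -0.53 for 5385 regions with the motif and 0.10 for the rest.

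**Figure D5:**
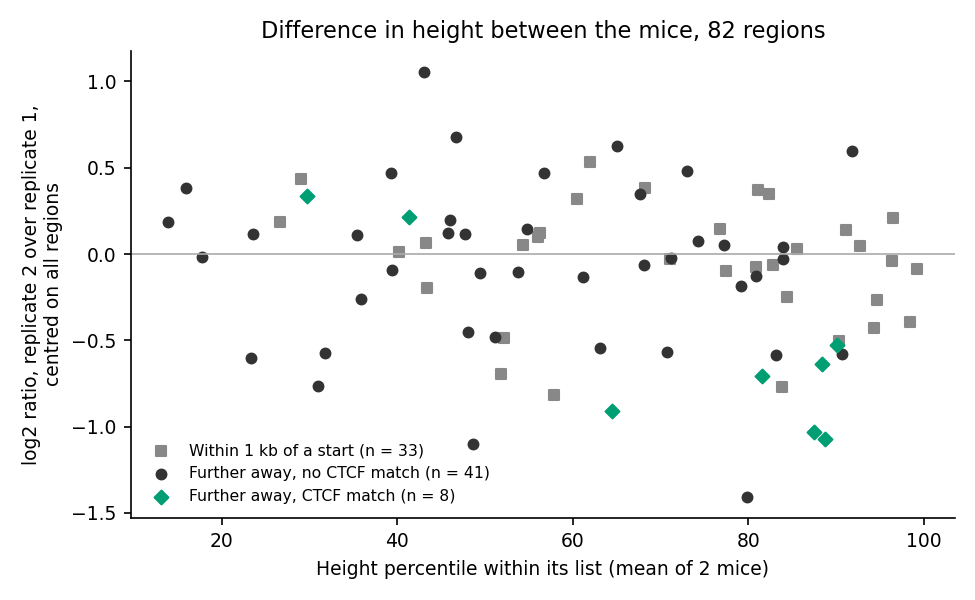
Centred log2 ratio of height between the mice (replicate 2 over replicate 1) against the mean height percentile for the 82 regions called in both mice, by distance from the nearest start and CTCF-type match. Most points lie within 1 unit of 0, and 6 of the 8 diamonds, the regions over 1 kb from any start with the match, lie below 0.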

How the data were processed

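DNase-seq libraries from 2 mice of a single group were analysed, with coordinates in mm10 per the labels. Peak heights are the authors' deposited signal values, whole multiples of a fixed step in each library. Reads per library are unknown. Aligner, peak caller and thresholds: not given in the sources used here. Footprints were deposited with a constant score of 0.01, so only positions were used. Cut-rate runs were deposited with a false discovery rate (unit p-value) below 0.05.

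The members and gene lists were chosen with earlier results of these data known. Peaks of the shorter list of each mouse were merged where they overlapped by at least 1 bp (bedtools 2.31.1). A promoter peak lies within 1 kb of an annotated start (GENCODE M21). Heights were ranked within a list; between mice they were compared as centred log2 ratios. Motifs were matched as exact letters in the reference, which is C57BL/6J sequence. RefSeq promoters were matched for 8 of the 10 genes. Named were all 10 genes, their promoter peaks, the highest region away from starts, each response element region, the extreme ratios, and per list the 3 highest promoters and the first 3 without one. No test was made, since there is 1 group. Interval and motif code was checked on simulated data. Python 3.11.15, pandas 2.3.3 and scipy 1.17.1 were used. A marker gene of the lists is not reported here.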

Additional observations from a re-analysis of the deposited data

How the results depend on the processing

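The number of the 10 genes with a promoter peak was 9 under the longer lists, a 500 bp limit and either mouse alone. It was 8 with peaks above the median height, where Crhr1 dropped out. The share of all protein-coding genes ranged from 54.6% with peaks above the median height to 65.4% with the longer lists. With those higher peaks the axis list fell from 5 to 2 genes. The pooled density of 0.403 regions per 10 kb became 0.664 with the longer lists and 0.251 with peaks above the median height, and ranged from 0.546 to 0.668 with a single mouse, the higher value coming from replicate 2 alone with its stretch downstream of Zbtb16. The median density of the 10 genes stayed above that of all protein-coding genes under each of these settings. The median height percentile was 66.8 with the longer lists instead of 67.1. Footprints per region ranged from 2.71 to 3.21 over the peaks of a single mouse, against 4.18 over regions called in both. Bases passing a false discovery rate of 0.001 made up 22.7 bp per kb, against 35.9 at 0.05. Regions with the response element numbered 20 with the single arm, 11 with the longer lists and 0 with the full palindrome, a setting chosen after seeing the data, as was leaving out the Zbtb16 stretch. Longer lists, a single mouse and a looser motif add regions by construction, and a stricter motif, height or false discovery rate removes them. No paired analysis was possible because there is a single group. Depth limits weak peaks, such as those in Crhbp, which are not told apart from absence.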
